A study of Mus musculus with 6 samples.

Results

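Imprinted genes are genes of which mainly the copy from the father or mainly the copy from the mother is transcribed. The list examined held 40 imprinted protein-coding genes of 18 loci, chosen by symbol and grouped by imprinted locus. Of these, 39 were found by symbol among the 22380 gene identifiers of the libraries, and *Snrpn*, which was not matched, was not analysed here. They were measured by Smart-Seq2 RNA-Seq in 6 mouse embryonic stem cell (mESC) lines, 3 *Ctrl* and 3 *Tet iTKO*, in which TET enzymes, the dioxygenases that oxidize 5-methylcytosine, had been removed.

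Both groups carried CreERT2 wt/ki, expressed from the human ubiquitin C promoter, and the *Gt(ROSA)26Sor* H2B-EGFP reporter (tm1Ytchn) wt/ki, which is switched on by Cre. The *Tet iTKO* lines were in addition *Tet1/2/3* fl/fl, whereas *Ctrl* lines had no floxed *Tet* allele. All 6 lines, each from a different embryo, were exposed for 2.5 days to 1 µM tamoxifen, given in the study's methods as the active metabolite 4-hydroxytamoxifen, and grown for 4 more days, so that RNA was taken at day 6.5. Cells grew in 2i medium on mouse embryonic fibroblast feeders and were sorted as live, GFP-positive, CD326-positive and Thy1.2-negative. *Ctrl* lines therefore shared the drug, Cre and reporter with the *Tet iTKO* lines but not the deletion. Over the whole gene, *Tet1* was at 696, 682 and 716 normalized counts in *Ctrl* against 787, 895 and 753 in *Tet iTKO*, *Tet2* at 249, 170 and 230 against 233, 268 and 211, and *Tet3* at 28, 13 and 13 against 10, 3 and 3. *Tet3* fell (adjusted p = 0.035), *Tet1* was called higher (adjusted p = 0.026) and *Tet2* was not called. Only some exons of each gene are floxed and the counts cover the whole gene, so the deletion itself was not read from these values.

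At most imprinted loci a differentially methylated region carries DNA methylation laid down in only the egg or only the sperm, and this mark is kept on the same parental copy after fertilization, when most other methylation is lost. ZFP57 and TRIM28 bind the methylated copy and, with the maintenance methyltransferase DNMT1 and its partner UHRF1, hold the mark in embryonic stem cells. Many imprinted genes control fetal growth, with growth promoters such as *Igf2* often expressed from the paternal copy and growth inhibitors such as *Grb10* and *Igf2r* from the maternal copy. The parental copy named for each gene below is background knowledge. The libraries do not separate the copies, so a total level is all that was compared.

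The genes that carried the most repeatable changes lay at 4 loci: *Grb10* with its neighbour *Ddc*, *Igf2*, *Peg10* and *Commd1*. The start regions of those with an entry in RefSeq (build GRCm38.p6) are shown because the mark at imprinted loci is methylation of CpG dinucleotides, which are in capitals. For each gene the annotated start with the most CpG was taken, and the 250 bases before it are written 5′ to 3′ on the gene's strand. The windows lie at chr11:12037421-12037670 for *Grb10*, chr11:11890409-11890658 for *Ddc*, chr11:22982285-22982534 for *Commd1* and chr7:142658805-142659054 for *Igf2*, all on the minus strand.
Grb10: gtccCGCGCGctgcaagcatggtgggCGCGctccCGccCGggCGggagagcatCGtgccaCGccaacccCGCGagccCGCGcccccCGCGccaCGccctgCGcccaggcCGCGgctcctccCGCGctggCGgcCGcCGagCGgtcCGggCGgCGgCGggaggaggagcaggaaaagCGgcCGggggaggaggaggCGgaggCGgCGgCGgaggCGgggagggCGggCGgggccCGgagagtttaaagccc
Ddc: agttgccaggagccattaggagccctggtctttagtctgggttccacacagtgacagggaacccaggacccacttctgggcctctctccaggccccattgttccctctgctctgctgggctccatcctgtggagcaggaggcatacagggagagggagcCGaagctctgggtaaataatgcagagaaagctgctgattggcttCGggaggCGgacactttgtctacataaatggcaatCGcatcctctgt
Commd1: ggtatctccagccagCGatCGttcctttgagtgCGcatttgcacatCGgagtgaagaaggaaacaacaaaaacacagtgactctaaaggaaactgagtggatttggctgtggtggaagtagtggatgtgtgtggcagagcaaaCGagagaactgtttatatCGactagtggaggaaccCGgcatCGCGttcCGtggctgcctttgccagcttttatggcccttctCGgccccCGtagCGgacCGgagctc
Igf2: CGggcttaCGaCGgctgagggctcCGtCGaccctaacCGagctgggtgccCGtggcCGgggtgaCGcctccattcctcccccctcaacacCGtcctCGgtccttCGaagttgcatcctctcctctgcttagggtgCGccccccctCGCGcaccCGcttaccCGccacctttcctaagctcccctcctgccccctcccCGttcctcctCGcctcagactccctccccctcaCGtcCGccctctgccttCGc
The window of *Grb10* held 40 CpG, and that of its neighbour *Ddc* held 4. *Commd1* had 14 CpG and *Igf2* 22 in these windows. The windows are gene starts and were not chosen as the differentially methylated regions of these loci. Methylation was not measured in these libraries.

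Levels of the 39 genes ranged widely. A normalized count is the authors' read count per gene divided by a size factor of its library. The libraries summed to 4210784 to 4219665 of them in *Ctrl* and to 3964824 to 3996522 in *Tet iTKO*. Genes above 0 numbered 13431 to 13539 in the *Ctrl* libraries and 14024 to 14363 in the *Tet iTKO* libraries. The part of this difference in the rises of genes near 0 was not tested. The mean over the 6 lines was at least 100 normalized counts for 13 genes, between 10 and 100 for 14, and above 0 but under 10 for 10 genes. *Rasgrf1* and *Slc22a3*, with a normalized count of 0 in all 6 lines, were not detected, which at the floor taken here of 3 counts is no proof of absence. Per kilobase of the longest transcript, the highest mean level in *Ctrl* was that of the tetraspanin *Cd81*, 659 normalized counts per kilobase, followed by the histone chaperone *Nap1l4* with 382 per kilobase. *Tssc4* (252 per kilobase), *Mest* (228 per kilobase) and *Phlda2* (226 per kilobase) came next. Among the tested genes *Dlk1* was lowest on this scale, with 2.08 per kilobase. Summed over all 39 genes, the level was 5875 to 6255 normalized counts in *Ctrl* and 5832 to 6018 in *Tet iTKO*, so the groups overlapped.

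**Figure D1:**
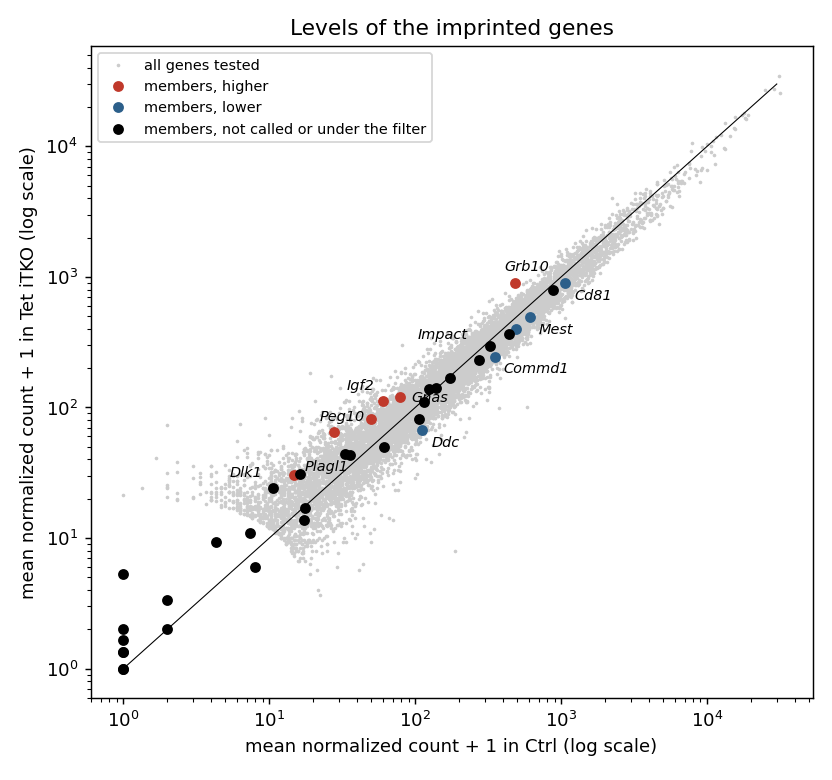
Mean normalized count plus 1 in the 3 *Tet iTKO* lines against that in the 3 *Ctrl* lines, on log axes, for all 10524 genes tested (grey) and the 39 imprinted genes (red, higher; blue, lower; black, not called or under the filter); the line marks equal levels. *Grb10* stands above the line at a Ctrl mean of 482, and most other imprinted genes lie close to it.

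The comparison of *Tet iTKO* with *Ctrl* asked which imprinted genes changed in total level within days of the deletion. Of the 39 genes, 27 had a mean of at least 10 and were tested with limma on log2(normalized count + 1), with adjustment over all 10524 genes tested. At an adjusted p under 0.05, called here, 6 were higher in *Tet iTKO* and 5 were lower, and 16 were not called. Across all genes tested, 34.8% were called, 16.4% as higher and 18.4% as lower, so that the 11 of 27 imprinted genes called, 40.7%, lay near the background. Values of the 2 groups did not overlap for 11 of the 27, against 44.1% of all genes tested. The median log2 fold change was -0.05 over the 27 genes and 0.01 over all genes tested.

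Few of the changes were large. Called changes of 2-fold or more were seen for 2 of the 27 tested imprinted genes, *Peg10* and *Plagl1*, both higher, and for none that was lower. Of all 10524 genes tested, 521 rose and 137 fell by that much, so such changes were few there as well. Called members were found at 10 of the 17 loci with a tested member. Among the 13 tested genes listed as paternally expressed, 3 rose and 3 fell, and among the 13 listed as maternally expressed, 2 rose and 2 fell. The remaining gene was *Gnas*, which uses either copy by transcript. These labels are background knowledge, in part from other tissues, and the copy used in these lines was not measured.

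Each comparison was repeated after trends on transcript length and GC content had been removed from every library. It left 26.5% of genes called, and 7 of the 27 imprinted genes, 3 higher and 4 lower. Called both ways and in the same direction were 5 genes, *Grb10*, *Igf2*, *Peg10*, *Ddc* and *Commd1*. *Igf2r*, *Plagl1*, *Gnas*, *Mest*, *Cd81* and *Slc38a4* were called only without this correction, and *Tssc4* and *Peg3*, both lower, only with it. A single line also mattered: without *Tet iTKO* replicate 2, 3 genes were called higher in place of 6, with *Igf2r*, *Plagl1* and *Gnas* no longer called.

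**Figure D2:**
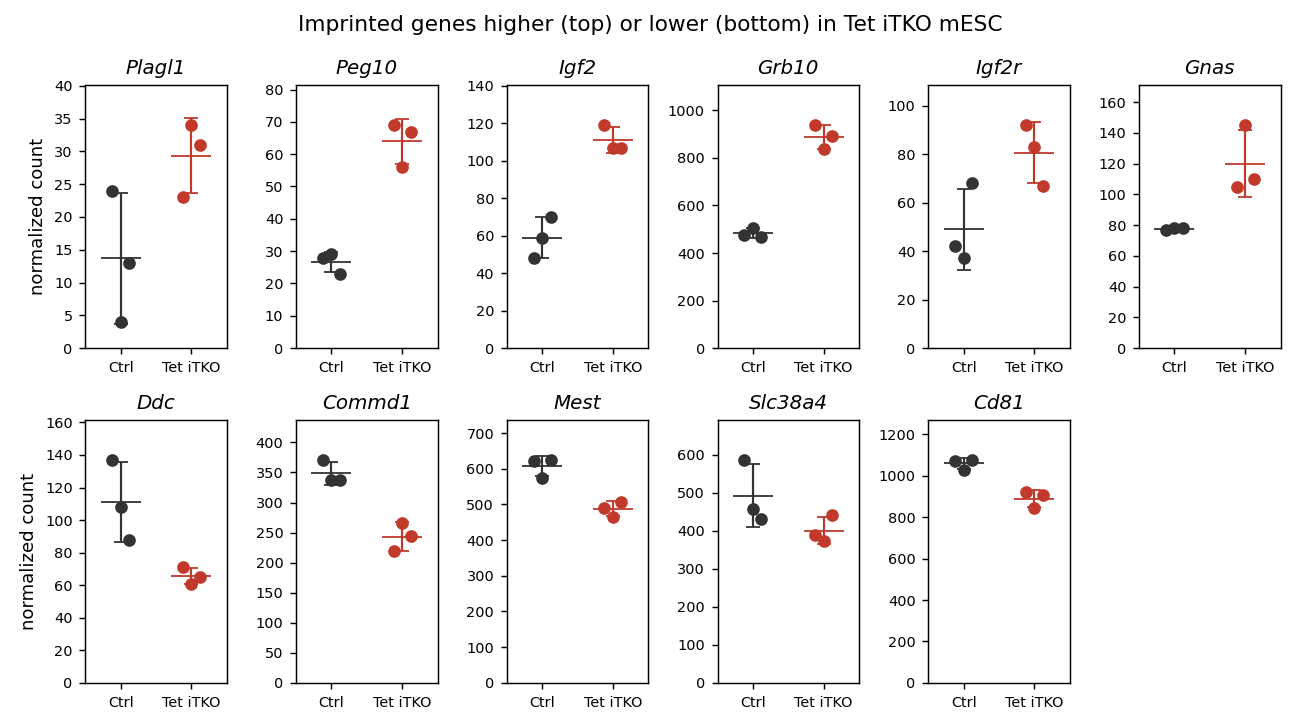
Normalized counts in each line (points) for the 6 imprinted genes called higher (top row) and the 5 called lower (bottom row) in *Tet iTKO*, with the mean (bar) and SD (whiskers) of the 3 *Ctrl* (black) and 3 *Tet iTKO* (red) lines; each axis starts at 0. The groups are apart for *Grb10*, *Peg10*, *Igf2*, *Gnas*, *Ddc*, *Commd1*, *Mest* and *Cd81* and overlap for *Plagl1*, *Igf2r* and *Slc38a4*.

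*Grb10* encodes an adaptor that binds the insulin and IGF1 receptors and restrains growth, and in most tissues its maternal copy is used. Its level in the *Ctrl* lines was 474, 506 and 467 normalized counts, and in the *Tet iTKO* lines 938, 839 and 890. The lowest *Tet iTKO* line stood well above the highest *Ctrl* line. Its mean was 482 ± 20.8 in *Ctrl* and 889 ± 49.5 in *Tet iTKO* (SD, n = 3). On the log2 scale it rose by 0.88 ± 0.08 (SE, as for all fold changes below, with an adjusted p of 2.3e-11). It was called under all 16 alternative settings, with log2 fold changes from 0.78 to 0.97.

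*Ddc*, the neighbour of *Grb10*, encodes the decarboxylase that makes dopamine and serotonin and is expressed from the paternal copy in the developing heart. The *Ctrl* lines held 137, 108 and 88 normalized counts, and the *Tet iTKO* lines 71, 61 and 65. All *Tet iTKO* lines were below all *Ctrl* lines, which themselves were spread more widely. *Ddc* fell by 0.73 ± 0.20 on the log2 scale (adjusted p = 0.0050). Without *Ctrl* replicate 1 the log2 fold change was -0.57, with an adjusted p of 0.060, and in the other 15 settings it was called.

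The pair thus moved in opposite directions within the same locus on chromosome 11. The 2 other tested genes within 250 kb were not called, and the median log2 fold change of the 885 tested genes of chromosome 11 was 0.06.

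*Igf2* encodes the fetal growth factor IGF2 and is expressed from the paternal copy. It was at 48, 59 and 70 normalized counts across the *Ctrl* lines and 119, 107 and 107 across the *Tet iTKO* lines. Every *Tet iTKO* line exceeded every *Ctrl* line. The log2 fold change was 0.92 ± 0.21 (adjusted p = 0.00062) and 0.62 with the correction (adjusted p = 0.021), and the gene was called in all 16 alternative settings. In the annotation, 62.8% of the exon bases of *Igf2* are shared with another annotated gene on the same strand, *Gm49394*.

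*Igf2r* encodes the receptor that clears IGF2 from the cell surface and is expressed from the maternal copy. Its levels were 42, 37 and 68 normalized counts across the *Ctrl* lines and 92, 83 and 67 across the *Tet iTKO* lines. The highest *Ctrl* line and the lowest *Tet iTKO* line overlapped. The log2 fold change of 0.75 ± 0.25 passed the test (adjusted p = 0.018), but the call was lost in 8 of 16 settings. With the correction it was 0.38 (adjusted p = 0.28).

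*Plagl1*, a zinc finger transcription factor of an imprinted gene network that includes *Igf2*, is expressed from the paternal copy. Levels were low and uneven, at 24, 4 and 13 normalized counts across the *Ctrl* lines and 23, 34 and 31 across the *Tet iTKO* lines. *Ctrl* replicate 2 stood lowest, and the groups overlapped. It rose by 1.31 ± 0.49 on the log2 scale (adjusted p = 0.033). With the correction it was 1.25 (adjusted p = 0.0504). Without *Ctrl* replicate 2 it was 0.68 (adjusted p = 0.24), and the call was lost in 8 of 15 settings.

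*Peg10*, derived from a retrotransposon and required for the placenta, is expressed from the paternal copy. The *Ctrl* lines were at 28, 29 and 23 normalized counts and the *Tet iTKO* lines at 69, 56 and 67. The groups were far apart relative to their spread. This rise, 1.23 ± 0.29 on the log2 scale (adjusted p = 0.00083), was called in all 15 settings that tested it. *Sgce*, which starts at the same region as *Peg10* and runs the other way, held 9, 7 and 3 normalized counts across the *Ctrl* lines and 9, 13 and 8 across the *Tet iTKO* lines, too few to test. Of the 3 other tested genes near this locus, 1 rose and 2 fell. The one that rose was the collagen gene *Col1a2* (log2 fold change 1.17, adjusted p = 0.00033), which is also among the fibroblast genes compared below.

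*Gnas* encodes the stimulatory G protein alpha subunit and, from other starts, transcripts of either parental copy, all counted together here. The *Ctrl* lines were nearly equal at 77, 78 and 78 normalized counts, and the *Tet iTKO* lines were at 105, 145 and 110. *Tet iTKO* replicate 2 was the highest, and the groups did not overlap. *Gnas* rose by 0.61 ± 0.19 on the log2 scale (adjusted p = 0.011), with 0.46 when that line was left out (adjusted p = 0.12) and 0.30 after the correction (adjusted p = 0.26). *Gm20721*, which shares exon bases with *Gnas* on the opposite strand, was at 1 normalized count in a single line and at 0 in the others.

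Cells of the feeder layer can add RNA of their own to a sorted sample, and fewer cells of a type cannot be told apart from less RNA per cell. Of 10 fibroblast genes, 4 were tested and 3 rose, all of them collagens, where 16.4% of all genes tested rose. *Col1a1* was at 181, 170 and 150 normalized counts across the *Ctrl* lines and 304, 281 and 349 across the *Tet iTKO* lines. The list summed to 277 to 306 normalized counts in *Ctrl* and to 482 to 569 in *Tet iTKO*. *Thy1*, the marker used to gate feeders out, was at 30, 46 and 41 against 47, 35 and 23, *Dcn* at 2, 3 and 15 against 1, 2 and 6, and *Twist2* and *Postn* did not exceed 3. Of the 10, 6 had a mean under 10. The collagens, and with them the sum of the list, were higher in *Tet iTKO* as a group, as were *Igf2*, *Igf2r*, *Grb10* and *Peg10*. This is a comparison of groups, and the order of the lines within a group was not compared. *Thy1* was not called, and *Dcn* and *Lum* had lower means in *Tet iTKO*. The part of feeder RNA in these rises was not tested.

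Markers of the stem cells and of other cell types were also compared. Naive mESC genes, a list of 10 led by *Dppa5a*, *Tdgf1* and *Pou5f1*, summed to 28277 to 28720 normalized counts in *Ctrl* and 24465 to 25421 in *Tet iTKO*. Of the 10, 3 rose and 4 fell, 70% against 34.8% of all genes tested. With the correction 3 rose and 2 fell, where 26.5% of all genes were called. The log2 fold change of *Dppa5a* turned from -0.39 to 0.15 with that step. Trophoblast genes summed to 710 to 794 against 626 to 664, mostly *Tfap2c*, which fell, with *Plac1* at 0. Within that list *Eomes* was at 10, 27 and 23 against 31, 36 and 35 and was not called, and *Cdx2* was at 0 in all *Ctrl* lines and at 1, 5 and 2 in *Tet iTKO*. Primitive endoderm genes summed to 24 to 33 against 28 to 47. There *Gata4* rose from 2, 7 and 10 to 21, 12 and 27 (log2 fold change 1.64, adjusted p = 0.030, and 0.080 with the correction), and *Sox7* was at 17, 24 and 7 against 2, 9 and 9 and was not called. Neural genes summed to 644 to 746 against 681 to 755, nearly all of it *Tubb3*. *Pax6* was at 4, 2 and 1 against 14, 11 and 11, too low to test, and *Nes* at 19, 17 and 16 against 40, 27 and 29, not called, both without overlap of the groups. The part of these cell types in the changes of the imprinted genes was not tested.

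*Commd1* encodes a protein of copper handling and receptor recycling, expressed more from the maternal copy in some tissues, and *Zrsr1* lies in one of its introns. *Commd1* was at 371, 337 and 337 normalized counts across the *Ctrl* lines and 219, 266 and 245 across the *Tet iTKO* lines. No *Tet iTKO* line reached the *Ctrl* range. It fell by 0.52 ± 0.11 on the log2 scale (adjusted p = 0.00026) and was called in all 16 settings. *Zrsr1*, a splicing factor gene of the paternal copy, was at 9, 5 and 7 against 4, 6 and 5 normalized counts and was not tested. The 2 genes share 412 exon bases on opposite strands, and Smart-Seq2 keeps no strand, so the gene from which reads of these bases came cannot be told apart.

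*Mest* encodes a protein of the hydrolase family that is expressed from the paternal copy in mesoderm. In *Ctrl* it was at 621, 574 and 625 normalized counts, and in *Tet iTKO* at 490, 466 and 508. The groups did not overlap. It fell by 0.31 ± 0.08 on the log2 scale (adjusted p = 0.0028), and with the correction the log2 fold change was -0.19 (adjusted p = 0.077). *Copg2*, which overlaps 23.1% of the exon bases of *Mest* on the opposite strand, was at 199, 211 and 152 against 179, 123 and 170 normalized counts and was not called.

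*Slc38a4*, an amino acid transporter of the paternal copy, was at 586, 458 and 431 normalized counts across the *Ctrl* lines and 388, 372 and 440 across the *Tet iTKO* lines. *Ctrl* replicate 1 stood highest, and the groups overlapped. The log2 fold change of -0.29 ± 0.10 was called (adjusted p = 0.024), but the call was lost in 9 of 16 settings, and without *Ctrl* replicate 1 the value was -0.15 (adjusted p = 0.27).

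The *Kcnq1* locus on chromosome 7 held 8 of the genes, of which the maternal copy is the more active, and 6 of them were tested. *Cd81* was at 1073, 1029 and 1077 normalized counts across the *Ctrl* lines and 921, 843 and 905 across the *Tet iTKO* lines. The small shift left the groups apart, a log2 fold change of -0.25 ± 0.07 (adjusted p = 0.0030). After the correction it was -0.03 (adjusted p = 0.75).

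*Tssc4*, a splicing-related gene, was at 374, 428 and 512 normalized counts across the *Ctrl* lines and 367, 369 and 362 across the *Tet iTKO* lines. The *Ctrl* lines were spread and the *Tet iTKO* lines nearly equal, without overlap. The log2 fold change was -0.25 ± 0.10 (adjusted p = 0.054), and with the correction -0.31 (adjusted p = 0.016). *Nap1l4* was at 842, 893 and 883 against 725, 760 and 901 normalized counts (adjusted p = 0.16). *Phlda2*, a brake on placental growth, was at 159, 173 and 181 against 164, 184 and 150 (adjusted p = 0.84). For these 2 genes the groups overlapped. *Cdkn1c*, a cyclin-dependent kinase inhibitor, was at 45, 20 and 31 against 65, 33 and 30 (adjusted p = 0.41), and *Slc22a18* at 7, 15 and 27 against 19, 9 and 10 (adjusted p = 0.77). *Osbpl5* stayed at or under 4 normalized counts, and the potassium channel gene *Kcnq1* was at 1 in a single line and 0 elsewhere.

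*Peg3*, a zinc finger gene of the paternal copy, was at 286, 235 and 297 normalized counts across the *Ctrl* lines and 229, 246 and 219 across the *Tet iTKO* lines. The groups overlapped in 1 line each, and the log2 fold change was -0.23 ± 0.12 (adjusted p = 0.13). With the correction it was -0.46 (adjusted p = 0.0028), and without *Ctrl* replicate 2 it was -0.33 (adjusted p = 0.044). *Usp29*, which starts beside *Peg3* on the other strand, was at 2, 6 and 2 against 15, 3 and 7, and *Zim1*, of the same locus and the maternal copy, was at 2 in a single line and 0 elsewhere. The RefSeq start windows of *Peg3* and *Usp29* share 263 of 300 bases.

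The remaining genes with a mean of at least 100 were not called. *Impact*, a regulator of translation under stress, was at 401, 258 and 312 normalized counts across the *Ctrl* lines and 315, 284 and 282 across the *Tet iTKO* lines (adjusted p = 0.48). *Ube3a*, the ubiquitin ligase gene of Angelman syndrome, was at 164, 127 and 125 against 135, 127 and 156 (adjusted p = 0.96). *Blcap* was at 142, 134 and 95 against 148, 133 and 132 (adjusted p = 0.46), and *Zdbf2* at 79, 109 and 151 against 115, 122 and 89 (adjusted p = 0.95). In each of them the lines of both groups overlapped.

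*Nnat*, a small membrane protein gene of the paternal copy, lies in an intron of *Blcap*. It was at 103, 102 and 108 normalized counts across the *Ctrl* lines and 78, 89 and 73 across the *Tet iTKO* lines. The groups did not overlap, but the log2 fold change of -0.38 ± 0.19 did not pass the test (adjusted p = 0.11). The log2 ratio of *Nnat* to *Blcap* within a line, which does not depend on the size factor, was -0.46, -0.39 and 0.18 in *Ctrl* and -0.92, -0.57 and -0.85 in *Tet iTKO*. It differed by -0.56, with a p of 0.1 in an exact two-sided permutation test, the smallest that 3 lines against 3 can give. The 4 other neighbouring pairs set for comparison could not be tested, since 1 gene of each had a mean under 10.

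The low genes varied more between lines than the high ones. Among the 13 genes with a mean of at least 100, the highest *Ctrl* line was at most 1.91 times the lowest, for *Zdbf2*, and among the 14 genes between 10 and 100 it was up to 6.33 times, for *Dlk1*. *Dlk1*, a NOTCH ligand relative of the paternal copy, was at 19, 3 and 7 normalized counts across the *Ctrl* lines and 25, 33 and 12 across the *Tet iTKO* lines. At 1.39 ± 0.57 on the log2 scale, the difference was the highest of the 27 and did not pass the test (adjusted p = 0.053). *Herc3* was at 14, 19 and 13 against 36, 33 and 21 without overlap (adjusted p = 0.082). *Ndn* and *Mkrn3* of the *Snrpn* locus were at 43 to 69 and 12 to 20 normalized counts over the 6 lines, and *Ppp1r9a* was at 19 to 49, none of them called. *Magel2*, of the paternal copy of the *Snrpn* locus, was at 0 in the 3 *Ctrl* lines and at 9, 4 and 0 in *Tet iTKO*. *Nap1l5*, *Calcr* and *Asb4* did not exceed 3 normalized counts in any line.

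**Figure D3:**
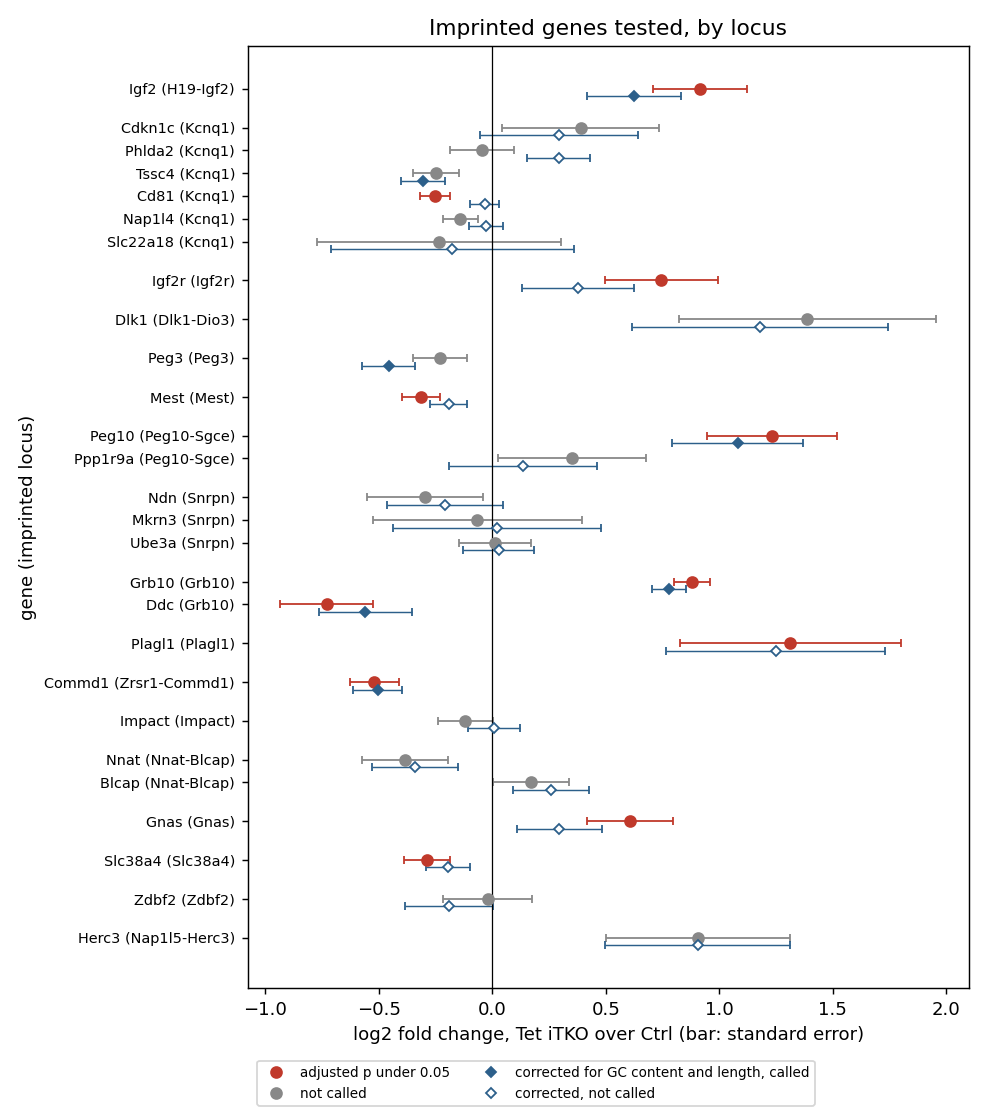
Log2 fold change of *Tet iTKO* over *Ctrl* with its standard error for the 27 imprinted genes tested, by locus (circles, red where the adjusted p was under 0.05), and the same with the length and GC correction (diamonds, filled where called). *Grb10* at 0.88 and *Ddc* at -0.73 sit on opposite sides of 0 within the same locus, and *Cd81* moves from -0.25 to -0.03 with the correction.

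Genes around the imprinted loci and their chromosomes were compared as a description. Of 52 tested genes within 250 kb that are in neither imprinted list, 4 rose and 15 fell, together 36.5% against 34.8% of all genes tested, of which 16.4% rose and 18.4% fell. Around *Gnas* 6 neighbours were tested, with 1 higher and 3 lower, and around *Igf2r* 8, with 4 lower. Chromosome 7, with 11 of the tested genes, had a median log2 fold change of 0.04, and the other chromosomes that hold them had medians between -0.06 and 0.06. Chromosome Y, which holds none of them, had a median of -0.91 over 6 tested genes. Its marker genes *Ddx3y*, *Uty*, *Kdm5d* and *Eif2s3y* were above 0 in every line, and only *Eif2s3y* was called. It was at 363, 344 and 375 normalized counts in *Ctrl* against 182, 181 and 178 in *Tet iTKO* (adjusted p = 5.6e-09).

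Start windows in RefSeq, 250 bases before to 50 after a start, were found for 33 of the 39 genes. The window farthest upstream held a median of 15 CpG for the tested imprinted genes against 22 for all genes tested. For the 5 genes with a window that rose it was 26, with a range of 2 to 45, and for the 5 that fell it was 8, with a range of 2 to 23, so the ranges overlapped. For *Igf2* and *Ddc* the window farthest upstream, with 2 CpG in each, is not the start shown above, which was chosen for the most CpG. The hexamer TGCCGC, the sequence to which ZFP57 binds when its CpG is methylated, was searched on both strands. Among the tested imprinted genes 5 of 23 such windows held it, 21.7%, against 20.4% of the windows of all genes tested. Only the start farthest upstream was counted. *Mest* and *Igf2* held the hexamer only at other starts, and *Grb10*, *Commd1* and *Zdbf2*, which also have other starts, only at the one counted. Differentially methylated regions away from these starts were not searched. Over all imprinted genes with a window, 7 of 33 held the hexamer, 21.2%, against 11.6% of all genes with a window. These imprinted windows held a median of 15 CpG against 7 for all genes with a window. The hexamer itself holds a CpG, so the 2 shares are not from like windows.

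A further 44 imprinted genes formed a second list, of which 31 were found and 17 tested. In *Tet iTKO* 3 rose and 3 fell, 35.3% of those tested against 34.8% of all genes. *Peg12*, a paternally expressed gene near the *Snrpn* locus, was at 81, 59 and 66 normalized counts across the *Ctrl* lines and 49, 16 and 42 across the *Tet iTKO* lines (log2 fold change -1.06, adjusted p = 0.0074). *Sfmbt2*, a Polycomb-group gene needed for the placenta, was at 54, 26 and 39 against 52, 94 and 107 (log2 fold change 1.06, adjusted p = 0.0029), with overlap of the groups. *Mapt*, which encodes the microtubule protein tau, was at 195, 234 and 228 against 121, 109 and 109 (log2 fold change -0.95, adjusted p = 2.3e-06). *Mcts2* was at 229, 165 and 204 against 147, 123 and 149 (log2 fold change -0.50, adjusted p = 0.0070), with a log2 fold change of -0.03 after the correction. It is a retrogene copy of *Mcts1*, and reads alike in both genes may not be separated. *H19*, *Meg3*, *Kcnq1ot1*, *Airn* and the other non-coding RNAs of the list were not analysed here.

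Genes that place or keep imprints were the third list, with 21 of 22 found and 19 tested. Of these 7 rose and 4 fell, 57.9% against 34.8% of all genes. After the correction 4 rose and 7 fell, where 26.5% of all genes were called. The median log2 fold change of the list went from 0.12 to -0.06 with that step. Called both ways and in the same direction were 7 genes. *Rb1*, the retinoblastoma gene, was at 19, 1 and 8 normalized counts across the *Ctrl* lines and 24, 24 and 14 across the *Tet iTKO* lines (log2 fold change 1.57, adjusted p = 0.0499). Its partner *Arid4a* was at 71, 92 and 83 against 104, 123 and 125 (log2 fold change 0.51, adjusted p = 0.029). The other called changes were under 0.5 in size. *Dnmt3l*, the cofactor of de novo methylation, had a log2 fold change of -0.49, and *Setdb1*, the H3K9 methyltransferase recruited by TRIM28, one of 0.48, both of the same sign and called after the correction. *Zfp57* was at -0.15 and at 0.01 with the correction, *Dnmt1* at 0.21 and -0.08, *Dnmt3a* at 0.25 and -0.17, and *Dnmt3b* at 0.24 and 0.07. *Uhrf1* was at -0.15 and -0.28, *Hells* at -0.31 and -0.22, and *Dppa3* at 0.31 and 0.82, all called both ways. *Trim28*, at 10836 to 11228 normalized counts in the 6 lines, had a log2 fold change of -0.0019 and was not called, but after the correction it was at -0.31 (adjusted p = 3.1e-09).

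**Figure D4:**
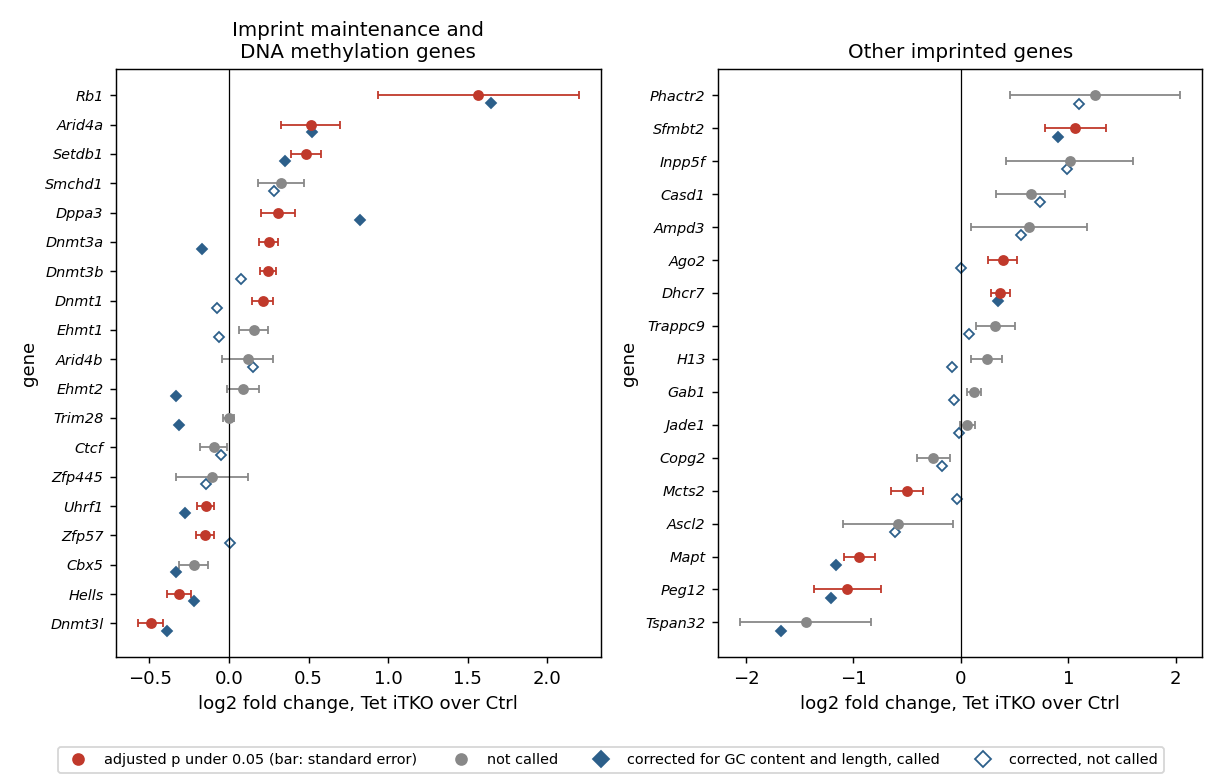
Log2 fold change of *Tet iTKO* over *Ctrl* with its standard error for the 19 imprint maintenance and DNA methylation genes tested (left) and the 17 other imprinted genes tested (right), red where the adjusted p was under 0.05; diamonds show the value with the length and GC correction, filled where called. *Dnmt3a* moves from 0.25 to -0.17 with the correction and *Mapt* stays below -0.9 in both.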

How the data were processed

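Total RNA of 6 sorted mESC lines, 3 *Ctrl* and 3 *Tet iTKO*, was sequenced (Smart-Seq2, paired ends of 50 bases). Alignment by the authors used STAR and retained only uniquely placed reads, which HTSeq 0.7.1 assigned to genes (stranded option on). They divided the counts by DESeq2 1.26.0 size factors in R 3.5.2. The submitters' processing notes name build mm9. The deposited values have the unit score, being these normalized counts rounded to whole numbers, so no count model was run. Libraries summed to 4210784 to 4219665 in *Ctrl* and to 3964824 to 3996522 in *Tet iTKO*.

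Symbols, GC content and transcript lengths came from GENCODE M21 (GRCm38) for 20775 of 22380 identifiers. The test was limma 3.58.1 under R 4.3.3 (eBayes with trend, two-sided), applied to log2(normalized count + 1). Only the 10524 genes averaging 10 or more entered, p-values were adjusted by Benjamini-Hochberg, and genes under 0.05 were called. The fit was also run on simulated counts that held no GC or length trend, so that run cannot speak for calls that turn on such trends. The correction removed a loess trend (span 0.3) on GC content and log2 length from each library, for the 99.4% of genes with both. The paired ratio used an exact permutation test. Replicates are lines from different embryos, and p-values measure the spread between them. The floor of 3 counts covers counting error only, since amplified reads that carry no molecular identifier may repeat a molecule.

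The members and lists were chosen with earlier results of these data known. Genes named are all members, with values in every line for those called or with a mean of at least 100, and of the other lists those called with a log2 fold change of at least 0.5 in size, at most 8 of each. The smaller changes of the maintenance list, the cell type markers and the overlapping genes were named after their values were seen. Other settings were pseudocounts of 0.5 and 4, no filter, a mean of at least 50, rescaling to the same total, quantile normalization, eBayes without trend, a replicate block, the correction, and leaving out each line. Software for tables was pandas 2.3.3, NumPy 2.4.6, SciPy 1.17.1 and Python 3.11.15.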

Additional observations from a re-analysis of the deposited data

How the results depend on the processing

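Of the imprinted genes, 6 rose and 5 fell. With the length and GC correction 3 were called higher, and leaving out a line gave 3 to 6 higher (3 without *Tet iTKO* replicate 2) and 4 to 6 lower; the cause was not tested. Other imprinted genes called were 6, with 3 under eBayes without the trend and 3 to 6 with a line left out, and imprint maintenance genes called were 11, with 3 and 6 to 11 in the same settings, again lowest without *Tet iTKO* replicate 2. These alternatives for the 2 further lists were chosen after seeing the data. The replicate block gave 7 higher and 6 lower, adding *Dlk1* (adjusted p = 0.048) and *Tssc4* (adjusted p = 0.041), and with the correction 4 higher and 4 lower. Lines with the same number did not deviate together (r = 0.0194, 0.00288 and 0.00194 over 7819 genes, against -0.0395 to 0.0374 over all pairs), so the numbers do not pair the lines.

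Sign changed in some settings for uncalled genes. Rescaling to the same total gave *Phlda2* 0.0388, *Mkrn3* 0.0151 and *Zdbf2* 0.0645. The correction, with or without the block, gave *Phlda2* 0.29, *Mkrn3* 0.0209 and *Impact* 0.0079. With a line left out log2 fold changes ran from -0.1219 to 0.0246 for *Phlda2*, -0.7026 to 0.2011 for *Slc22a18*, -0.0229 to 0.6381 for *Ppp1r9a*, -0.1937 to 0.1170 for *Mkrn3*, -0.0708 to 0.1387 for *Ube3a*, -0.2694 to 0.0477 for *Impact*, -0.0048 to 0.2826 for *Blcap* and -0.2505 to 0.2125 for *Zdbf2*. None of the imprinted genes called in the main test changed sign in any setting run. Of the called genes in the maintenance list, *Dnmt1*, *Dnmt3a* and *Zfp57* changed sign with the correction. The ratio of *Nnat* to *Blcap* ranged from -0.67 to -0.35 with a line left out. Counts under 10 limit what can be said of 12 genes.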
